A study of Sus scrofa with 15 samples.

Results

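The genes described here build and run the secretory pathway. Their transcripts were measured in pig granulosa cells, which surround the oocyte in the ovarian follicle and make its hormones, over 7 days of culture. They were chosen by their names: each had a single symbol in the array annotation that began with SEC and a digit, COPA, COPB, COPE, COPG or COPZ, SRP and a digit, SRPR, TMED and a digit, KDELR, SPCS, or RAB and a digit, or that was SSR1 to SSR4 or ARF1 to ARF6. The rule found 83 of the 6765 genes with a single symbol, covered by 133 of the 23999 probe sets tested. For each gene the probe set with the highest mean over all arrays was used, and 50 of the 83 genes had only 1. The series measured total RNA on Affymetrix porcine genome arrays on days 0, 1, 2, 4 and 7 of culture, with 3 arrays for each of the 5 days and 15 in all. Per the labels, day 0 to day 4 arrays carry RNA of granulosa cells (GCs) and day 7 arrays that of the dedifferentiated cells named DFOG. Day 0 is the start of the time course, so every change against it also takes in the move into culture. The labels used here give no strain, age or number of animals, and no treatment other than the time in culture. They call the replicates biological, but nothing says that they came from separate animals or cultures, and a p-value here reflects array-to-array spread that may be technical. With 3 arrays a day, precision is limited by their number.

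A protein bound for the cell surface or the matrix enters the endoplasmic reticulum (ER) through the SEC61 channel, to which the signal recognition particle (SRP) brings its ribosome. It leaves the ER in vesicles coated by COPII, crosses the Golgi, and reaches the plasma membrane in carriers steered by RAB GTPases, while COPI vesicles and KDEL receptors return escaped ER proteins. Collagens and other large matrix proteins load this route heavily, and in humans inherited defects of SEC23A and of SEC24D, both inner COPII coat proteins, disturb the skeleton. The comparison asks when, over the days on which transcripts of matrix genes appeared, transcripts of this route changed. Secretion itself was not measured.

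Values are log2 intensities. Changes are log2 differences of day means with their standard error (SE) from limma, 3 arrays on each day. A gene was called higher or lower when its Benjamini-Hochberg adjusted p over all probe sets was under 0.05 and its change was at least 1 in size, and counts at the adjusted p alone stand beside. Intensities of different probe sets cannot be compared with each other as amounts of RNA, so results are read from changes of the same probe set. Levels serve only to describe markers and to mark dim or bright probe sets. Because whole cell populations were measured, fewer cells of a type and less RNA per cell cannot be told apart.

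Arrays of the same day correlated at 0.963 to 0.996. Replicate 1 of every day lay apart from replicates 2 and 3 on the third principal component, which held 13.1% of the variance. Day 4 replicate 2 had the largest 3′ minus 5′ difference of the actin control probe sets (2.12, against 0.07 and 0.63 on the other day 4 arrays), a measure that rises when RNA is broken or incompletely copied. On day 7 arrays that difference ran between 0.19 and 0.59, and on day 0 arrays between 0.97 and 1.68. It therefore shifted along with the culture, and its part in the results was not tested. The mean level of 13 granulosa markers was 6.47 to 6.62 on the day 7 arrays, against 9.39 to 9.75 on day 0, and 7 of the 13 were called lower. On day 0 INHA, the inhibin alpha subunit, and HSD17B1, an estradiol-forming enzyme, read 14.04 to 14.38 and 13.26 to 13.77, while FOXL2 and CYP19A1 read between 4.98 and 6.05. Over all arrays the means of 8 macrophage markers lay between 4.56 and 5.14, and those of 9 endothelial markers between 5.02 and 5.48. On day 7 CD14 (1.67), ERG (3.43) and PECAM1 (1.49) among them were called higher and TIE1 (-2.40) lower. The means of 3 theca markers were 4.58 to 4.82 on day 7 and 5.38 to 5.65 on day 0, with INSL3 called lower, and those of 2 red blood cell markers 6.84 to 6.86 on day 7 and 7.06 to 7.65 on day 0. The part of these markers in the results was not tested.

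More of these genes rose than fell, most by modest amounts, with SEC24D, KDELR3 and RAB3D as the largest rises and RAB27B as the largest fall among the probe sets used. On day 7 against day 0, 17 of the 83 genes were called higher and 3 lower. The background was 9.36% higher and 7.28% lower over all probe sets, and 12.7% higher and 6.86% lower over genes with a single symbol. At the adjusted p alone 40 were higher and 6 lower, beside 16.4% and 14.9% of all probe sets and 23.4% and 15.4% of named genes. These shares are also the day 7 background of each role and list below. The median change of the 83 genes was 0.47, against -0.05 for all probe sets and 0.03 for named genes, and 65 of the 83 had a positive change. For 39 of the 83 genes the mean level was 10 or more, and bright probe sets as a class read higher on day 7: 17% of the 1209 named genes that bright were called higher and 37.2% passed the adjusted p upward, with a median of 0.26. Among the 39, 8 were called higher and 23 passed the adjusted p upward, with a median of 0.65. Set beside equally bright genes, the count at the minimum change was thus close to its background, and the count at the adjusted p alone was above it.

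Fewer genes were called on the earlier days. On day 1, 10 genes were called higher and 1 lower, beside 6.47% and 6.03% of all probe sets, and at the adjusted p alone 21 and 6, beside 13.6% and 11.4%. On day 2 the counts were 8 higher and 1 lower (background 7.68% and 6.09%), and 32 and 6 at the adjusted p alone (14.6% and 11.5%). On day 4 they were 14 higher and 3 lower (9.29% and 6.59%), and 37 and 6 at the adjusted p alone (16.7% and 14%). Set beside equally bright genes, day 1 showed no excess of rises: 9 of the 39 bright genes of the group passed the adjusted p upward, against 30.6% of bright named genes, with medians of 0.22 and 0.23. On day 2 the count was 19 of 39 (background 35.2%, medians 0.44 and 0.28) and on day 4 it was 22 of 39 (37.6%, medians 0.48 and 0.26). The median change of the 83 genes was 0.22, 0.36, 0.46 and 0.47 on days 1, 2, 4 and 7 as reported, 0.02, 0.16, 0.25 and 0.26 after cyclic loess, and 0.12, 0.22, 0.28 and 0.28 after a second quantile normalization. The counts of higher calls also depended on the scaling of the arrays: after cyclic loess 5, 6, 7 and 11 genes were called higher on days 1, 2, 4 and 7 and 1, 2, 4 and 4 lower. After a second quantile normalization they were 5, 6, 8 and 11 higher and 1, 3, 5 and 3 lower. At the adjusted p alone the split on day 1 was 15 higher and 13 lower after cyclic loess and 20 and 9 after the second quantile normalization, and on day 7 it was 32 and 10, and 34 and 8.

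Between successive days 0 of the 83 genes were called by limma. From day 1 to day 2 the adjusted p alone gave 6 higher and 1 lower, and an unadjusted p under 0.05 gave 20 and 3. From day 2 to day 4 these counts were 3 and 0, and 10 and 4, and from day 4 to day 7 they were 0 and 0, and 3 and 1. The share of all probe sets called in either direction in these steps was 3.04%, 2.53% and 0.0583%, and at the adjusted p alone it was 6.09%, 4.18% and 0.0625%. Over the whole time course the moderated F test called 25 of the 83 genes, beside 23.6% of all probe sets, and 48 with no minimum range of the day means, beside 35.9%. In all, 24 genes were called on some day against day 0, of which 20 were higher and 4 lower (SEC31B, RAB27B, RAB3IP and COPG2). Of the 20, 10 were first called on day 1, 0 on day 2, 6 on day 4 and 4 on day 7.

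**Figure D1:**
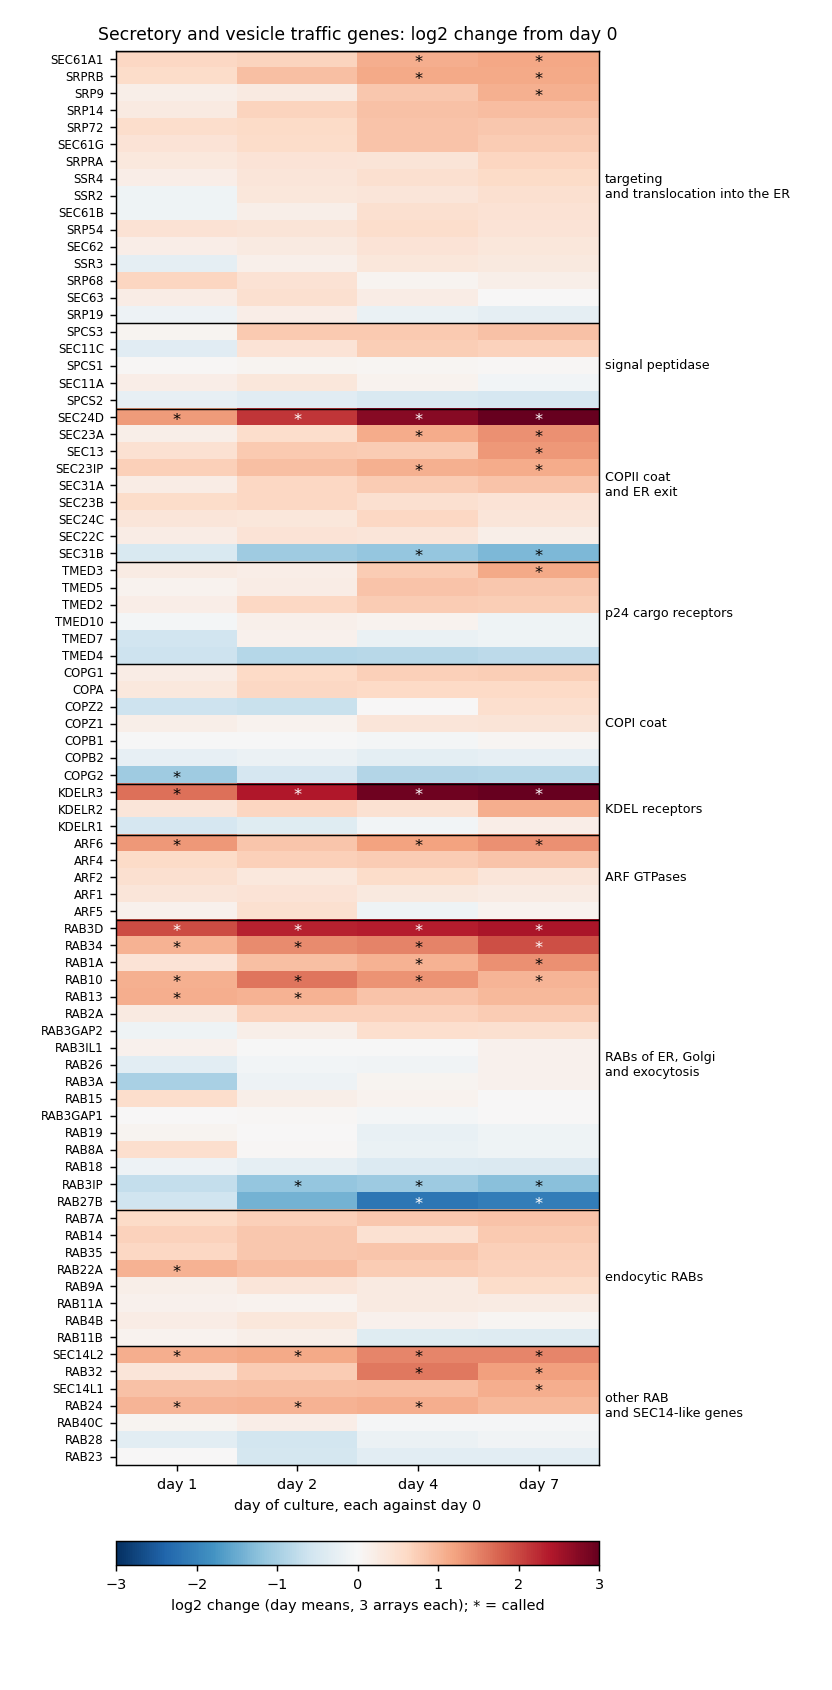
Log2 change of each of the 83 genes on days 1, 2, 4 and 7 (columns) against day 0, grouped by role and ordered within a role by the day 7 change; red is higher, blue is lower, and an asterisk marks a call (adjusted p under 0.05 and a change of at least 1). SEC24D (3.04 on day 7), KDELR3 (2.98) and RAB3D (2.44) stand out as the darkest red rows and RAB27B (-2.08) as the darkest blue one.

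Genes of entry into the ER mostly read higher on day 7, but by little. Of 16 genes of targeting and translocation, 3 were called higher on day 7 and 0 lower, 9 passed the adjusted p upward and 0 downward, and the median change was 0.53. Most of these probe sets had means of 10 or more. Among named genes that bright, 17% were called higher and 37.2% passed the adjusted p upward, with a median of 0.26. SEC61A1, the pore-forming subunit of the translocation channel, read 9.22, 10.02 and 10.07 on day 0, 9.75, 10.77 and 10.62 on day 1, 9.87, 10.80 and 10.66 on day 2, 10.81, 10.82 and 10.97 on day 4, and 10.67, 11.06 and 11.09 on day 7. All arrays of days 4 and 7 were above all those of day 0, while on days 1 and 2 replicate 1 lay below 2 of the 3 day 0 arrays. Its change was 1.10 ± 0.30 on day 4 (SE, limma adjusted p = 0.0136) and 1.17 ± 0.30 on day 7 (adjusted p = 0.00915). Both calls were lost without day 0 replicate 1, with changes of 0.82 and 0.89, and that of day 4 also after cyclic loess (0.82), after a second quantile normalization (0.88) and with replicates 2 and 3 only (0.85).

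SRPRB, the membrane-anchored subunit of the SRP receptor, read 8.20, 8.24 and 7.87 on day 0, 8.60, 8.63 and 8.74 on day 1, 9.12, 8.89 and 9.02 on day 2, 9.31, 9.15 and 9.22 on day 4, and 9.57, 9.20 and 8.96 on day 7. No later array reached down to day 0, and the change was 1.13 ± 0.16 on day 4 (0.95 after cyclic loess and 0.99 after a second quantile normalization, both under the minimum) and 1.14 ± 0.16 on day 7 (limma adjusted p = 7.42e-05), with 0.98, under the minimum, on day 7 when day 7 replicate 1 was left out. SRP9, which with SRP14 forms the part of the particle that slows translation, came later: it changed by 0.27 ± 0.16 on day 2, 0.80 ± 0.16 on day 4 and 1.07 ± 0.16 on day 7. SRP14 itself rose by 0.92 ± 0.13 on day 7, under the minimum change. The day 7 calls of SRP9 and SEC61A1 were lost after cyclic loess (0.84 and 0.93) and after a second quantile normalization (0.84 and 0.95), and that of SRP9 also without day 0 replicate 3 (0.95) or day 7 replicate 1 (1.00).

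Other parts of the entry machinery moved less. SRP72 rose by 0.80 ± 0.12, SEC61G, a small channel subunit, by 0.76 ± 0.20 and SRPRA, the second receptor subunit, by 0.65 ± 0.13 on day 7. Among the translocon-associated proteins SSR2 rose by 0.49 ± 0.12, and SSR4 changed by 0.57 ± 0.22 (adjusted p = 0.0657). SRP68 rose by 0.64 ± 0.14 on day 1 and then had a change of 0.17 ± 0.14 on day 7, and SEC63, which helps some chains through the channel, had its highest change on day 2 (0.47 ± 0.12) and none on day 7 (0.00 ± 0.12). Of the 5 signal peptidase genes, whose products cut off the signal sequence, 0 were called by limma, and an unadjusted p under 0.05 held for 2 higher and 1 lower on day 7. The catalytic subunit SEC11C had a change of -0.33 ± 0.15 on day 1 (adjusted p = 0.127) and rose by 0.68 ± 0.15 on day 7, while its paralogue SEC11A had a change of -0.08 ± 0.14 and SPCS1 one of 0.03 ± 0.12. The probe sets of SPCS2, RAB26, RAB19 and COPB2 had means at or under the highest lower quartile of the arrays (4.68), so these 4 genes had little signal in which to see a change.

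The COPII coat held 1 of the 2 largest changes of the group. SEC24D, one of the subunits that select cargo at ER exit sites, read 6.88, 7.00 and 7.25 on day 0, 8.39, 8.28 and 8.29 on day 1, 9.53, 8.89 and 9.14 on day 2, 10.22, 9.45 and 9.66 on day 4, and 10.42, 9.82 and 9.99 on day 7. Its arrays of day 1 were already all above those of day 0, and each later day mean was higher than the one before. The day means were 10.08 ± 0.31 on day 7 and 7.04 ± 0.19 on day 0 (SD, n = 3 each), a change of 3.04 ± 0.22 or 8.20-fold by limma (adjusted p = 1.67e-07), and on day 1 it was 1.28 ± 0.22 (adjusted p = 0.00066). SEC24C, another cargo subunit of this coat, rose by 0.63 ± 0.21 on day 4 (limma adjusted p = 0.0369) and had a change of 0.36 ± 0.21 on day 7 (adjusted p = 0.231).

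SEC23A, the partner of SEC24 in the inner coat, differed from day 0 only later. It read 9.37, 9.72 and 9.29 on day 0, 9.57, 9.82 and 9.53 on day 1, between 9.92 and 10.05 on day 2, 10.56, 10.63 and 10.53 on day 4, and 10.98, 10.81 and 10.70 on day 7. Days 0 and 1 overlapped, and from day 2 on all arrays were above day 0. Its change was 0.18 ± 0.14 on day 1 (adjusted p = 0.433), 1.11 ± 0.14 on day 4 (0.85 after cyclic loess and 0.90 after a second quantile normalization) and 1.37 ± 0.14 on day 7 (limma adjusted p = 4.28e-06), and a second probe set gave 1.20 ± 0.27 on day 7. Its paralogue SEC23B reached its highest change on day 2 (0.61 ± 0.21, adjusted p = 0.0481) and had 0.40 ± 0.21 on day 7 (adjusted p = 0.17).

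The outer coat and the exit sites held 5 more genes, of which SEC31B went down. SEC13, which builds the outer cage with SEC31, read 10.70, 10.53 and 10.55 on day 7 and 9.50, 9.25 and 9.15 on day 0, with no overlap. Its change was 1.29 ± 0.28 (limma adjusted p = 0.00305). On day 4 its replicate 2, the array with the large 3′ to 5′ difference, read 9.17 beside 10.57 and 10.42, and without that array the day 4 change was 1.19 ± 0.18, against 0.75 ± 0.28 with it. SEC31A, the main outer cage protein, rose by 0.85 ± 0.12 on day 7. SEC31B, its paralogue, was called lower on days 4 and 7: it read 5.02, 6.11 and 6.22 on day 7 and 6.51, 7.29 and 7.58 on day 0, a change of -1.34 ± 0.39 (limma adjusted p = 0.0182). That call was lost when day 0 replicate 2, day 0 replicate 3 or day 7 replicate 1 was left out, with changes of -0.96 to -1.26. The day 4 call (-1.15) was lost without day 0 replicate 2, day 0 replicate 3, day 1 replicate 2, day 2 replicate 2, day 4 replicate 1 or day 4 replicate 3, with changes of -0.74 to -1.25. Its day 2 change of -1.07 ± 0.39 (limma adjusted p = 0.0628) passed with the replicate number as a block (-1.07 ± 0.21, adjusted p = 0.00139). SEC23IP, a protein that binds SEC23 at exit sites, rose by 0.72 ± 0.12 on day 1 and 1.11 ± 0.12 on day 7 (limma adjusted p = 8.1e-06), and its day 7 change was 0.92 after cyclic loess and 0.96 after a second quantile normalization, both under the minimum. SEC22C, related to a SNARE of ER to Golgi traffic, had its highest change on day 2 (0.41 ± 0.13). In all, 4 of the 9 genes of this role were called higher on day 7 and 1 lower, with a median of 0.85.

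**Figure D2:**
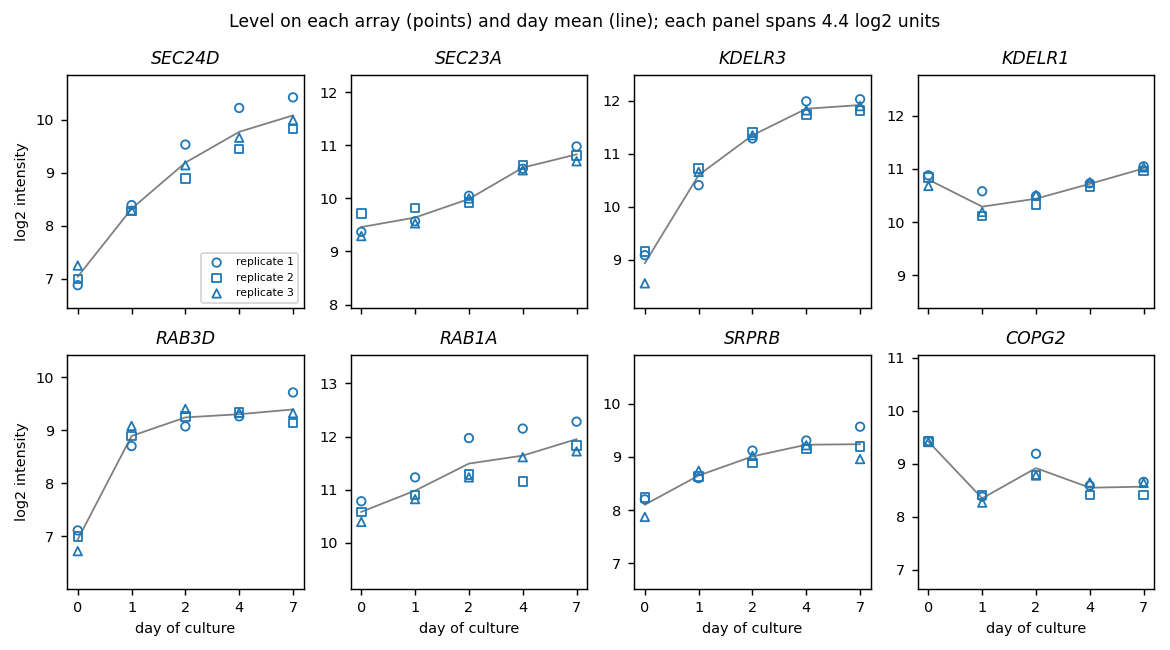
Log2 intensity (vertical axis, each panel spanning the same 4.4 log2 units) of 8 genes on each array (points, the shape giving the replicate) and the day means (line) over days 0, 1, 2, 4 and 7 (horizontal axis, evenly spaced). SEC24D, KDELR3 and RAB3D were above day 0 on every day 1 array, SEC23A left the day 0 range on day 2, KDELR1 dipped on day 1, and COPG2 was lower on all later arrays.

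Cargo receptors of the p24 family, which shuttle between ER and Golgi in both coats, were split. TMED3 read 9.90, 10.14 and 10.35 on day 7 and 8.96, 8.95 and 9.10 on day 0, a change of 1.13 ± 0.14 (limma adjusted p = 3.32e-05), after 0.21 ± 0.14 on day 2, and 0.94 after cyclic loess or 0.96 after a second quantile normalization. TMED2 rose by 0.73 ± 0.13 on day 7, and TMED10, with which it assembles, had a change of -0.14 ± 0.18 (adjusted p = 0.618). TMED4 went the other way, reading 10.65, 10.75 and 10.75 on day 7 and 11.39, 11.76 and 11.34 on day 0. It fell by 0.61 on day 1 and by 0.78 on day 7 (SE 0.14, limma adjusted p = 0.00058), all 3 of its probe sets had negative changes on day 7, and after cyclic loess its change of -1.04 passed the minimum. Of the 6 genes, 1 was called higher and 0 lower on day 7, and 2 and 1 passed the adjusted p alone.

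The COPI coat, which carries material back from the Golgi, had paralogues that changed in opposite directions. COPG2, one of a pair of gamma subunits, read 9.43, 9.42 and 9.41 on day 0, 8.38, 8.41 and 8.27 on day 1, 9.19, 8.79 and 8.78 on day 2, 8.59, 8.41 and 8.65 on day 4, and 8.66, 8.41 and 8.64 on day 7. Every later array was below day 0, with the lowest values on day 1. Its change was -1.07 ± 0.14 on day 1 (limma adjusted p = 6.14e-05) and -0.85 ± 0.14 on day 7 (adjusted p = 0.000266). COPG1, the other gamma subunit, rose by 0.59 ± 0.14 on day 2 and 0.73 ± 0.14 on day 7.

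COPZ2, a zeta subunit, dipped and then exceeded its starting level. It read 10.11, 10.24 and 10.01 on day 0, 9.69, 9.62 and 9.21 on day 1, 9.34, 9.46 and 9.58 on day 2, 9.79, 10.21 and 10.38 on day 4, and 10.43, 10.63 and 10.83 on day 7. Arrays of days 1 and 2 were all below and those of day 7 all above day 0. The changes were -0.61 ± 0.18 on day 1 (limma adjusted p = 0.0216), -0.66 ± 0.18 on day 2 and 0.51 ± 0.18 on day 7 (adjusted p = 0.042). COPA, the alpha subunit, rose by 0.60 ± 0.13 on day 7, COPZ1 by 0.38 ± 0.14, and COPB1 had a change of 0.05 ± 0.13 (adjusted p = 0.793). None of the 7 COPI genes was called on day 7 by limma, 4 passed the adjusted p upward and 1 downward, and an unadjusted p under 0.05 gave the same counts.

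Of the 3 KDEL receptors, which catch ER proteins in the Golgi for return, KDELR3 was the only 1 called. It read 9.09, 9.16 and 8.56 on day 0, 10.41, 10.72 and 10.66 on day 1, 11.29, 11.40 and 11.35 on day 2, 11.99, 11.74 and 11.82 on day 4, and 12.03, 11.82 and 11.90 on day 7. Each day up to day 4 lay wholly above the one before, and days 4 and 7 overlapped. The change was 1.66 ± 0.16 on day 1 (3.16-fold, limma adjusted p = 5.9e-06) and 2.98 ± 0.16 on day 7 (7.89-fold, adjusted p = 1.23e-08), and the other 2 probe sets gave 3.50 ± 0.41 and 0.90 ± 0.18 on day 7, the second from a dim probe set with a mean of 5.67.

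KDELR1 took another course. It read 10.88, 10.84 and 10.68 on day 0, 10.58, 10.11 and 10.19 on day 1, 10.49, 10.33 and 10.51 on day 2, 10.73, 10.67 and 10.75 on day 4, and 11.05, 10.96 and 11.03 on day 7. It fell by 0.51 on day 1 (SE 0.13, limma adjusted p = 0.0119), and on day 7 its change was 0.21 ± 0.13 (adjusted p = 0.255). KDELR2 read 12.50, 11.84 and 11.85 on day 7 and 11.43, 10.92 and 10.58 on day 0 without overlap, but its change of 1.09 ± 0.45 missed the threshold (limma adjusted p = 0.0882). It was called in the fit with the replicate number as a block (1.09 ± 0.30, limma adjusted p = 0.0106) and in that of the 2 days alone (1.09 ± 0.27, adjusted p = 0.0194), but with 0.80 after cyclic loess and 0.86 after a second quantile normalization it was not. On day 4 replicate 2 KDELR2 read 10.14 beside 12.31 and 11.83, and without that array its day 7 change of 1.09 ± 0.30 passed (adjusted p = 0.0141). The differences between the 3 receptors were not tested.

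ARF GTPases recruit coats to membranes, ARF1, ARF4 and ARF5 mainly at the Golgi and ARF6 at the plasma membrane and endosomes. ARF6 was the only 1 of the 5 called. It read 9.23, 9.22 and 9.14 on day 0, 10.46, 10.78 and 10.28 on day 1, 10.43, 9.83 and 9.81 on day 2, 10.70, 10.13 and 10.39 on day 4, and 10.89, 10.46 and 10.35 on day 7. All 12 later arrays were above day 0, with the lowest of the later day means on day 2. Its change was 1.31 ± 0.21 on day 1 (limma adjusted p = 0.000392), 0.83 ± 0.21 on day 2 and 1.37 ± 0.21 on day 7 (adjusted p = 0.000184). ARF4 rose by 0.58 ± 0.14 on day 1 and 0.86 ± 0.14 on day 7, and ARF1 by 0.42 ± 0.12 on day 2, with 0.24 ± 0.12 on day 7 (adjusted p = 0.135).

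**Figure D3:**
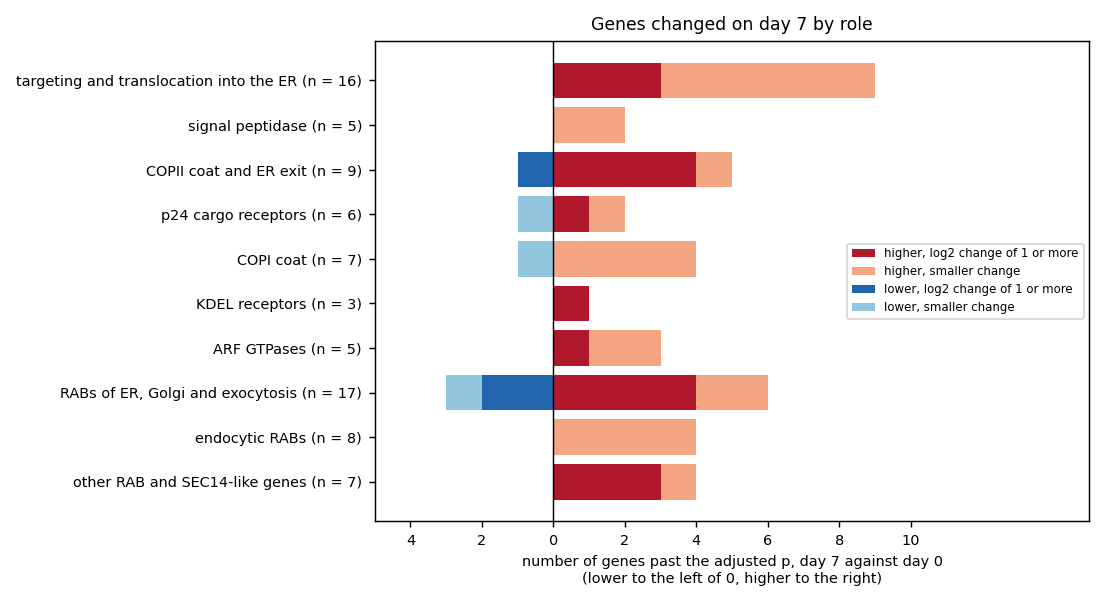
Number of genes of each role (rows, with the number of genes in the role) whose day 7 level differed from day 0 at an adjusted p under 0.05 (horizontal axis: lower to the left of 0, higher to the right); dark bars are changes of at least 1, light bars smaller ones. Targeting and translocation had 9 genes higher and 0 lower, endocytic RABs had 4 higher and none of them reached the minimum change, and lower genes of at least that change were in the COPII role (1) and among RABs of ER, Golgi and exocytosis (2).

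RAB GTPases of the ER, the Golgi and exocytosis, with their regulators, held RAB3D, the largest rise after SEC24D and KDELR3 among the probe sets used, and RAB27B, the largest fall. Of 17 genes, 4 were called higher and 2 lower on day 7, and 6 and 3 passed the adjusted p alone, with a median of 0.13. RAB1A, which guides vesicles between ER and Golgi, read 10.78, 10.58 and 10.39 on day 0, 11.23, 10.90 and 10.82 on day 1, 11.97, 11.28 and 11.23 on day 2, 12.15, 11.15 and 11.61 on day 4, and 12.28, 11.83 and 11.72 on day 7. All later arrays were above day 0, and replicate 1 was the highest on every day. Its change was 0.40 ± 0.26 on day 1 (adjusted p = 0.321) and 1.36 ± 0.26 on day 7 (limma adjusted p = 0.00109). A second probe set gave 1.03 ± 0.24 and the dim last one, with a mean of 3.56, gave -0.43 ± 0.14. The mean of all of them gave 0.65, which was not called. RAB2A, which acts at the same step and in the Golgi, rose by 0.77 ± 0.15 on day 7.

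RAB3D, a GTPase of regulated exocytosis, read 7.11, 7.00 and 6.72 on day 0, 8.70, 8.89 and 9.08 on day 1, 9.07, 9.26 and 9.40 on day 2, 9.26, 9.33 and 9.33 on day 4, and 9.71, 9.13 and 9.32 on day 7. It was near its final level by day 1, when 79.7% of its day 7 change was present. The change was 1.95 ± 0.17 on day 1 (limma adjusted p = 2.45e-06) and 2.44 ± 0.17 on day 7 (5.44-fold, adjusted p = 1.14e-07). The 3 RAB3D probe sets disagreed: a second fell by 0.62 on day 7 (SE 0.15, limma adjusted p = 0.00669) and the dim last one had 0.05 ± 0.20, and the mean of all 3 gave a change of 0.62, which was not called.

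RAB10 and RAB13, which serve delivery from the Golgi to the plasma membrane, had their highest day means on days 2 and 1. RAB10 read 10.75, 11.16 and 11.10 on day 0, 11.88, 12.28 and 12.04 on day 1, 12.48, 12.68 and 12.69 on day 2, 12.05, 12.53 and 12.46 on day 4, and 11.92, 12.11 and 12.06 on day 7. Its change was 1.61 ± 0.16 on day 2 (limma adjusted p = 6.27e-06) and 1.03 ± 0.16 on day 7 (adjusted p = 0.000257), and all 4 of its probe sets had positive day 7 changes, from 0.89 to 1.63. RAB13 rose by 1.10 ± 0.18 on day 1, 1.05 ± 0.18 on day 2 and 0.98 ± 0.18 on day 7, and its calls of days 1 and 2 were lost without day 0 replicate 1 (0.95 and 0.90), after cyclic loess (0.86 and 0.77), after a second quantile normalization (0.99 and 0.84) and with replicates 2 and 3 only (0.87 and 0.90). The RAB10 call of day 7 was lost after cyclic loess (0.72), after a second quantile normalization (0.77) and without day 0 replicate 1 (0.90) or day 7 replicate 2 (0.98), and with replicates 2 and 3 only (0.95).

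RAB34, a Golgi-associated GTPase also needed for cilia, read 9.82, 10.32 and 10.18 on day 7 and 7.61, 8.37 and 8.57 on day 0. The groups did not overlap, and the change was 1.05 ± 0.25 on day 1 (0.76 without day 0 replicate 1, 0.86 after cyclic loess and 0.96 after a second quantile normalization) and 1.93 ± 0.25 on day 7 (limma adjusted p = 4.06e-05). RAB18, of the ER and lipid droplets, fell by 0.43 on day 7 (SE 0.14, limma adjusted p = 0.0267). RAB3A, known for synaptic vesicle release, fell by 0.98 on day 1 (SE 0.21, limma adjusted p = 0.0037), and its day 7 change was 0.12 ± 0.21.

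RAB27B, which docks secretory granules and exosome-bearing bodies at the plasma membrane, read 6.30, 7.75 and 7.83 on day 0, 7.73, 6.30 and 6.03 on day 1, 7.44, 5.35 and 4.86 on day 2, 4.71, 4.97 and 5.70 on day 4, and 4.75, 5.07 and 5.80 on day 7. Replicate 1 was the lowest array of day 0 and the highest of days 1 and 2, and by days 4 and 7 all arrays were below day 0. The change was -2.17 ± 0.64 on day 4 and -2.08 ± 0.64 on day 7 (limma adjusted p = 0.0228). The day 4 call was lost without day 4 replicate 2 (adjusted p = 0.0515), day 4 replicate 1, day 0 replicate 2 or day 0 replicate 3, with changes of -1.90 to -2.09, and the day 7 call without day 0 replicate 2, day 0 replicate 3, day 7 replicate 1 or day 7 replicate 2, with changes of -1.82 to -2.01. RAB3IP, the exchange factor that activates RAB8, read 4.81, 5.36 and 5.28 on day 7 and 6.13, 6.64 and 6.43 on day 0, a change of -1.25 ± 0.24 (limma adjusted p = 0.00101). RAB8A itself had -0.13 ± 0.50 on day 7 (adjusted p = 0.88), with replicate 1 at 8.47 and replicates 2 and 3 at 6.19 and 6.81 on day 1.

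Endocytic RABs, which sort cargo inward and back to the surface, rose in part and by less than the minimum on day 7. Of 8 genes, 0 were called on day 7 by limma, 4 passed the adjusted p upward and 0 downward, and at an unadjusted p under 0.05 the counts were also 4 and 0. Their median change was 0.62 on day 7 and 0.40 on day 1, against 0.44 and 0.20 for the 75 other genes, a difference that was not tested. RAB22A, of early endosomes, was the only 1 called on any day: it read 9.77, 9.05 and 9.19 on day 1 and 8.28, 8.40 and 8.22 on day 0, a change of 1.04 ± 0.18 (limma adjusted p = 0.000694), and it was no longer called without day 1 replicate 1 (0.82) or day 0 replicate 3 (1.00, just under the minimum), with replicates 2 and 3 only (0.81), after cyclic loess (0.87) or after a second quantile normalization (0.96). On day 7 its change was 0.70 ± 0.18.

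RAB7A, which marks late endosomes, read 10.41, 10.02 and 9.98 on day 7 and 9.26, 9.37 and 9.21 on day 0, a change of 0.86 ± 0.17 (limma adjusted p = 0.00176). RAB35, of recycling from the early endosome, rose by 0.71 ± 0.18. RAB9A, of traffic from late endosomes to the Golgi, rose by 0.54 ± 0.17 on the probe set used and fell by 1.01 on the other (SE 0.22, adjusted p = 0.00302), so its direction depends on the probe set. The recycling GTPases RAB11A and RAB11B had changes of 0.24 ± 0.18 and -0.38 ± 0.31 (adjusted p = 0.347 and 0.401).

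The name rule also caught 7 genes outside the core route, of which 3 were called higher on day 7. SEC14L2, a lipid-binding protein that shares only the start of its name with the secretory factors, read 6.36, 6.01 and 6.74 on day 7 and 5.34, 4.83 and 4.53 on day 0, a change of 1.47 ± 0.24 (limma adjusted p = 0.000304). SEC14L1 rose by 1.09 ± 0.14, and its call was lost after cyclic loess (0.86), after a second quantile normalization (0.89) and without day 0 replicate 3 (0.98). RAB32, of lysosome-related organelles and mitochondria, changed by 1.58 ± 0.13 on day 4 and 1.22 ± 0.13 on day 7 (limma adjusted p = 9.3e-06), and its second probe set gave 1.10 ± 0.25. RAB24, linked to autophagy, was called on days 1, 2 and 4 (1.01 to 1.09, but 0.85 to 0.93 without day 0 replicate 1, 0.84 to 0.91 after cyclic loess and 0.94 to 0.95 after a second quantile normalization) and had 0.98 ± 0.19 on day 7, while its second probe set had 0.00 ± 0.19. The ciliary GTPases RAB23 and RAB28 had changes of -0.53 ± 0.14 and -0.56 ± 0.17 on day 2 (limma adjusted p = 0.0127 and 0.0298), under the minimum. On day 7 their changes were -0.31 ± 0.14 and -0.11 ± 0.17 (adjusted p = 0.12 and 0.696).

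Other genes of the same steps moved in a mixed way. Of 51 measured genes of the early secretory route outside the name rule, 7 were called higher and 0 lower on day 7, and 16 and 7 passed the adjusted p alone, with a median of 0.29. The background over named genes was 12.7% and 6.86%, and 23.4% and 15.4% at the adjusted p alone. YKT6, a SNARE of ER to Golgi and Golgi traffic, changed by 1.93 ± 0.21, SURF4, a cargo receptor of the ER, by 1.42 ± 0.25, YIF1A by 1.37 ± 0.16 and the golgin GOLGA5 by 1.24 ± 0.36. Of 13 genes of translocon partners and oligosaccharyl transferase, which adds sugars to entering chains, 0 were called on day 7 by limma, 3 passed the adjusted p upward and 1 downward, and an unadjusted p under 0.05 gave 4 and 1. KRTCAP2, a transferase subunit, fell by 0.92 (SE 0.15), and OSTC and OST4 of the same complex rose by 0.75 ± 0.14 and 0.73 ± 0.14, as TRAM1, a translocon protein, did by 0.60 ± 0.12. TRAM2, a translocon protein linked to collagen synthesis and named after its values were seen, peaked early at 1.81 ± 0.19 on day 1 and had 0.39 ± 0.19 on day 7.

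Of 14 exocytosis genes 1 was called higher on day 7 and 2 lower, and 3 and 2 passed the adjusted p alone, which is near the 23.4% and 15.4% of named genes. The vesicle SNAREs VAMP8 and VAMP7 changed by 1.60 ± 0.20 and 0.96 ± 0.25, while VAMP2, the SNARE of regulated release, and EXOC6, an exocyst subunit, changed by -1.49 ± 0.23 and -1.23 ± 0.23. Of 16 genes of clathrin coats and early endosomes, 3 were called higher and 0 lower, and 9 and 0 passed the adjusted p alone. DAB2, an adaptor of clathrin-borne uptake, had a change of 4.87 ± 0.39 on day 1 and 6.10 ± 0.39 on day 7 (limma adjusted p = 6.04e-08), EEA1, a tether of early endosomes, 1.61 ± 0.24, and the adaptor subunits AP1S1 and AP2M1 1.03 ± 0.17 and 0.88 ± 0.12 on day 7.

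Transcripts of the cargo changed more. Of 31 measured genes of matrix proteins, 5 were called higher and 1 lower on day 1, 14 and 1 on day 2, 19 and 1 on day 4, and 20 and 3 on day 7. Over all probe sets the background was 6.47% and 6.03% on day 1, 7.68% and 6.09% on day 2, 9.29% and 6.59% on day 4, and 9.36% and 7.28% on day 7. On day 7, 8 of the 31 had a negative change, the largest in size being LAMB2 (-2.51), VCAN (-1.36), COL4A2 (-1.32) and MFAP2 (-1.13). First called higher on day 1 were FN1, LAMB1, LOX, POSTN and THBS1; on day 2 COL15A1, DCN, COL5A1, THBS2, NID2, TNC, COL5A2, BGN and SPARC; on day 4 LUM, MGP, COL8A1, FBN1 and LOXL1; and on day 7 COL1A2. The largest day 7 changes were 8.26 ± 0.49 for COL15A1, a basement membrane collagen, 7.91 ± 0.36 for FN1, fibronectin, 7.22 ± 0.73 for DCN, decorin, and 7.06 ± 0.23 for LAMB1, a laminin chain. LOX, the enzyme that crosslinks collagen, followed with 7.05 ± 0.58, LUM, lumican, with 5.95 ± 0.70, and the matricellular proteins POSTN and THBS1 with 5.77 ± 0.57 and 5.39 ± 0.38.

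As a share of their day 7 change, the 17 secretory and traffic genes called higher on day 7 had more in place on day 1 than the 20 matrix genes did. Their median share of the day 7 change, on the log2 scale, was 52.2% on day 1, 70.6% on day 2 and 89.9% on day 4, against 12.0%, 55.2% and 89.3% for the matrix genes. In size the secretory changes were smaller on day 7, with a median of 1.29 against 4.47 for the matrix genes. On day 1 the medians were close, at 0.72 and 0.59. On day 1 the shares ran widely in both sets. They went from 12.8% (SEC23A) to 103.8% (RAB10) in the secretory genes and from -26.7% (FBN1) to 93.1% (THBS1) in the matrix genes. The 17 include RAB32, SEC14L1 and SEC14L2, which lie outside the core route. No such share was computed for all genes called higher on day 7, so an early rise particular to this group is not shown. With both sets measured against the same day 0 arrays and no test of the difference, the shares are a description. Both sets were chosen by their day 7 call, and each share divides by that day 7 change. The smaller day 7 changes of the secretory genes turn a day 1 change of like size into a larger share. Bright named genes as a class also had a median change of 0.23 on day 1. A higher share thus does not show an earlier start. Only 11 of the 17 genes were still called higher on day 7 after cyclic loess. After cyclic loess the day 1 medians were 40.7% and 10.7%, after a second quantile normalization 51.5% and 13.2%, and with replicates 2 and 3 only 61.0% and 14.2%.

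**Figure D4:**
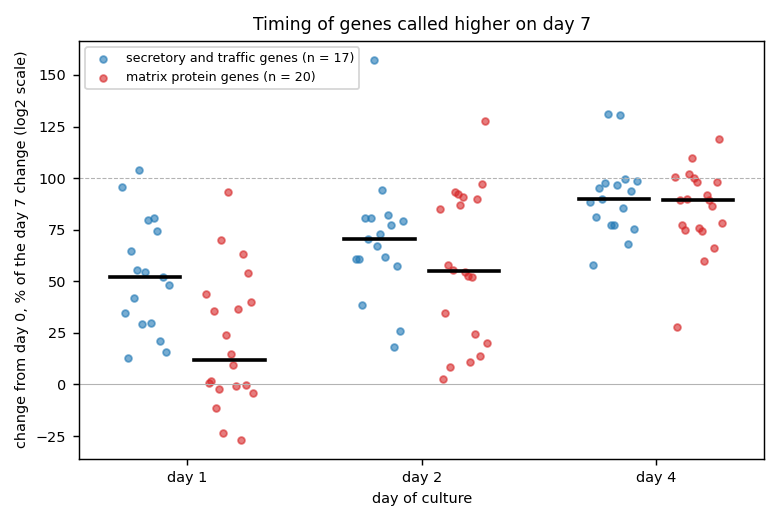
Change from day 0 on days 1, 2 and 4 (horizontal axis) as a percentage of the same gene's day 7 change (vertical axis, log2 scale), for genes called higher on day 7: 17 secretory and traffic genes (blue, left in each pair) and 20 matrix protein genes (red, right); each point is a gene and the black bars are medians. The medians were 52.2% and 12.0% on day 1, 70.6% and 55.2% on day 2, and 89.9% and 89.3% on day 4.

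Other cargo changed in both directions. Of 15 other secreted proteins 8 were called higher and 5 lower on day 7, from 7.47 ± 0.58 for CCL2, a chemokine, to -7.21 ± 0.35 for INHA, with IGFBP5, a carrier of insulin-like growth factors, at 5.18 ± 0.68 and LIF, a cytokine, at 5.15 ± 0.35. The day 7 background over named genes was 12.7% called higher and 6.86% lower. Genes listed as collagen-modifying enzymes and HSP47 (SERPINH1), a collagen chaperone, were mostly lower on day 1. Most of their products act inside the ER. Of 10 measured, 6 passed the adjusted p downward on day 1 and 0 upward, and on day 7 6 passed upward and 2 downward. Of all probe sets, 11.4% passed downward and 13.6% upward on day 1, and 16.4% upward and 14.9% downward on day 7. P4HA2, a prolyl hydroxylase of collagen, read 9.26, 8.95 and 9.27 on day 0, 7.70, 7.47 and 7.82 on day 1, 8.68, 8.74 and 8.88 on day 2, 10.73, 10.42 and 10.31 on day 4, and 10.86, 10.55 and 10.92 on day 7. Its arrays of days 1 and 2 were all below and those of days 4 and 7 all above day 0, with changes of -1.50 ± 0.16 on day 1 and 1.61 ± 0.16 on day 7 (limma adjusted p = 2.99e-06). FKBP14, a folding enzyme of the ER, changed by -0.69 ± 0.15 and 1.30 ± 0.15 on these days and PLOD1, a lysyl hydroxylase, by -0.17 ± 0.17 and 0.82 ± 0.17, while BMP1, which trims procollagen, changed by -1.35 ± 0.46 and -2.44 ± 0.46.

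Of 6 measured genes listed as regulators of secretory genes, 3 were called higher on day 1, beside 601 of the 6765 named genes. CREB3L2, a membrane-bound transcription factor known in mouse cartilage to raise Sec23a, read 7.30, 7.37 and 8.09 on day 0, 9.77, 9.12 and 9.24 on day 1, 9.17, 9.36 and 9.62 on day 2, 8.62, 8.70 and 8.46 on day 4, and 8.31, 8.02 and 8.17 on day 7. Arrays of days 1, 2 and 4 were all above day 0, and those of day 7 overlapped it. The changes were 1.79 ± 0.22 on days 1 and 2 and 0.58 ± 0.22 on day 7 (limma adjusted p = 0.0611). ATF4, of the stress response to misfolded proteins and amino acid lack, changed by 1.75 ± 0.19 on day 1 and 0.98 ± 0.19 on day 7, XBP1, the factor of the ER stress response, by 0.10 ± 0.17 and 0.59 ± 0.17, and CREB3L4 by -0.38 ± 0.21 and -0.73 ± 0.21. The remaining genes of the list, DDIT3 and ATF6B, include the other gene called higher on day 1. Their day 7 changes were 0.53 and -0.25. On day 7 limma called 0 of the 6, and an unadjusted p under 0.05 held for 3 higher and 1 lower.

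Among named genes outside the group, those whose 5 day means correlated best with the mean course of the 9 COPII genes were DLX5, CDC42EP3, MARVELD1, SUPT4H1 and RHOA, with Pearson's r from 0.9991 to 0.9998 over the 5 days. With only 5 points and a shared rise this picks out little: 74 of 6682 genes compared had an r above 0.99. The mean change of the COPII genes was 0.39, 0.59, 0.75 and 0.81 on days 1, 2, 4 and 7, beside 0.24, 0.43, 0.54 and 0.56 for the 16 targeting and translocation genes and -0.17, -0.00 (just below 0), 0.07 and 0.17 for the 7 COPI genes.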

How the data were processed

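Total RNA of pig granulosa cells was labelled with biotin and read on Affymetrix porcine genome arrays, per the labels' protocols. The deposited values are log2 intensities summarised per probe set by RMA, per the submitters' processing notes; the sources used here give no version of it. The array medians ran from 6.40 to 6.55, so the 15 arrays did not share one distribution. The 124 control probe sets were left out. Genes were named from the array annotation (10069 probe sets with 1 symbol, 198 with several, 13732 with none), and 82 of the 83 genes matched RefSeq by gene ID. The 1 probe set with several entries that matched the rule was not used. No genome build is named, so no positions or sequences are given.

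One limma model with a mean per day covered the 15 arrays and 23999 probe sets (limma 3.58.1, R 4.3.3, Python 3.11.15), with Benjamini-Hochberg adjustment over all of them; the fit was tested on simulated data. Named were all genes called on any day against day 0 and the 3 with the highest mean in each role, up to 4 genes of each other list by the largest day 7 change and 8 matrix genes; other genes were named after their values were seen, mostly as paralogues or partners of these. The genes and lists were chosen with earlier results of these data known. As a check of pairing, deviations from the day means were correlated between same-numbered arrays, and every value was positive. The values were 0.0609 to 0.334 on day 1 against day 0, 0.115 to 0.124 on day 2 against day 0, and 0.1645 to 0.727 in the other comparisons. No label says what a number shares. The fit has no block, and the fit with it is an alternative, given beside a gene where it changes the call. Alternatives were other scalings, a filter on the dimmest 40% of probe sets, other variance settings, the replicate block, dropping the minimum change, the treat test with a limit of 0.5, a fit of 2 days alone, averaging a gene's probe sets, leaving out each array, and replicates 2 and 3 only. The setting of bright genes beside the group and the shares of change under other scalings were added after seeing the data.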

Additional observations from a re-analysis of the deposited data

How the results depend on the processing

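Of 1221 alternative values of the 47 named secretory and traffic genes on day 7, 1162 kept their direction and their side of the threshold, 34 no longer passed it, 25 newly passed it and 0 reversed. Leaving out an array of day 1, 2 or 4, the variance settings and the filter of dim probe sets did not alter the size of a day 7 change. Such alternatives could not reverse a direction, so much of this agreement was fixed in advance. With no minimum change the genes called numbered 27, 38, 43 and 46 on days 1, 2, 4 and 7 (21, 32, 37 and 40 higher, 6 lower on each), 7 from day 1 to 2, 3 from day 2 to 4, and 48 over the time course, since that setting drops one limit. Cyclic loess gave 6 and 11 genes called on days 1 and 4, with 5, 7 and 11 higher on days 1, 4 and 7 and 2 lower on day 2. A second quantile normalization gave 6 on day 1, with 5, 8 and 11 higher on days 1, 4 and 7 and 3 and 5 lower on days 2 and 4. The share of higher among the genes called was 90.9%, 88.9%, 82.4% and 85% on days 1, 2, 4 and 7 as reported, 83.3%, 75%, 63.6% and 73.3% after cyclic loess, and 83.3%, 66.7%, 61.5% and 78.6% after the second quantile normalization; the cause was not tested. The treat test gave 7 on day 1 (6 higher), 0 lower on days 2 and 4 and 1 lower on day 7. Replicates 2 and 3 only gave 6 higher and 3 lower on day 1, 3 lower on day 2 and 1 called from day 1 to 2. The mean of all probe sets gave 9 higher on day 4 and 2 lower on day 2, and the fit of 2 days alone also 2 lower on day 2. With the replicate block 2 genes were lower on day 2, with SEC31B added (-1.07), and KDELR2 passed on day 7 (1.09); the paired fit changed no other count by over 1.5 times. Leaving out 1 array gave 7 to 11 called on day 1 (6 to 10 higher, 1 to 2 lower), the lowest without day 0 replicate 1, 0 to 1 from day 1 to 2, and 0 to 2, 0 to 3 and 1 to 3 lower on days 2, 4 and 7. Signal over background limits what dim genes such as SPCS2 can show.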
